A study of Mus musculus with 4 samples.

Results

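The 44 genes described here encode the complement and coagulation systems of plasma and of the cell surface, and were measured by RNA-seq in Hepa1-6, a mouse hepatocellular carcinoma cell line. They were chosen by symbol, 20 for complement and 24 for coagulation and fibrinolysis, out of 54838 genes listed in each file. The comparison is between 2 libraries of cells wild type for Acvr2a (NC) and 2 libraries of Acvr2a knockout cells (KO). Acvr2a encodes a type II receptor for activin, and no other allele or treatment is named in the labels. The knockout cells are described by the submitters as subclones, and whether KO 1 and KO 2 are separate subclones or cultures of 1 is not stated, so p-values measure only the spread between these libraries, which may be technical.

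Complement is a cascade of plasma proteases in which a classical, a lectin and an alternative route meet at the cleavage of C3 and lead to the terminal proteins that form a pore in a target membrane. Coagulation is a second protease cascade, in which tissue factor or contact factors lead to thrombin, which turns fibrinogen into fibrin, and plasmin then dissolves the clot. Hepatocytes make most of the plasma proteins of both systems, and liver tumour lines can keep expression of some and lose that of others.

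The libraries held 11597923 to 13910582 expected counts. Acvr2a itself had 81 and 108 counts in the NC libraries and 75 and 97 in the KO libraries, and its log2 ratio of -0.21 (SE 0.20, adjusted p = 0.433) did not separate the groups, so the group names follow the labels. A log2 ratio is the fitted log2 fold change of KO over NC. All adjusted p-values in the text are Benjamini-Hochberg values of edgeR's quasi-likelihood test over 12510 genes unless another tool or setting is named, with a threshold of 0.05. CPM values are counts scaled to a common library size with edgeR's TMM factors and serve to compare libraries, and TPM values are the deposited length-scaled levels and serve to compare genes. Of 8 hepatocyte markers, Alb and Trf were higher in KO (log2 ratios of 0.41 and 0.54), Afp and Hnf4a were lower (-1.21 and -0.995), and Ahsg and Serpina1a had at most 5 counts in any library. The summed CPM of the hepatocyte markers lay between 1719 and 1810 in NC and between 1830 and 2023 in KO. Markers of other cells were near 0 in part only. C1qa, Cdh5, Tek, Col3a1, Lum and Pf4 had 0 counts in all 4 libraries and Ptprc at most 2. Other markers on the same lists had enough reads for a test. Csf1r ranged from 18 to 37 counts per library, Pecam1 from 4 to 13 and Vwf from 7 to 12. Dcn lay between 1468 and 1682 CPM. Summed CPM was 50.2 to 51.0 in NC and 65.2 to 74.4 in KO for 6 macrophage markers, where Cd68 rose (1.20) and Cd14 fell (-0.89). It was 1.16 to 2.11 in NC and 0.835 to 1.85 in KO for 6 endothelial markers. For 6 fibroblast markers it was 1469 to 1478 and 1608 to 1685, almost all from Dcn, with Col1a1 higher in KO (2.73). For 5 platelet markers it was 57.3 to 63.7 and 29.8 to 34.4, where Ppbp fell (-1.08) and Itga2b rose (1.36, not past 0.05 without KO 2). The part of these markers in the results below was not tested, and in bulk RNA fewer cells of a type and less RNA per cell cannot be told apart.

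Most of the complement members tested were higher in KO, and the coagulation members moved in both directions. Among 10 complement members with enough counts for a test, 7 rose (C3, Hc, C1ra, C1s1, C2, Cd59a and Clu), 1 fell (Cfb) and 2 did not pass. Among 9 coagulation members tested, 3 rose (F5, Plat and Pros1), 3 fell (Serpinf2, Serpind1 and Fgb) and 3 did not pass. Over all genes tested, 37.9% passed, 19.7% higher in KO and 18.2% lower, so the 14 of 19 tested members that passed stand beside that share as a description. The median log2 ratio was 0.53 for the complement members tested, against -0.0037 for all genes tested. For the coagulation members tested it was -0.285, and 0.275 without the 4 described next, so its sign rested on them. NC and KO libraries were fully apart for 9 complement and 7 coagulation members, or 16 of 19, beside 69.4% of all genes tested.

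The filter shaped these counts. It asked for 0.757 CPM, which is 10 counts at the median depth, in at least 2 libraries. F5, Serpinc1, Serpind1 and Serpinf2 reached that in both libraries of only 1 group, so they could be tested only because that group was high. The other 15 tested members, 10 of complement and 5 of coagulation, reached it in both groups. Of those 5, Plat and Pros1 rose, Fgb fell, and F3 and Proc did not pass. All 19 tested members had a mean of at least 10 counts over the 4 libraries.

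**Figure D1:**
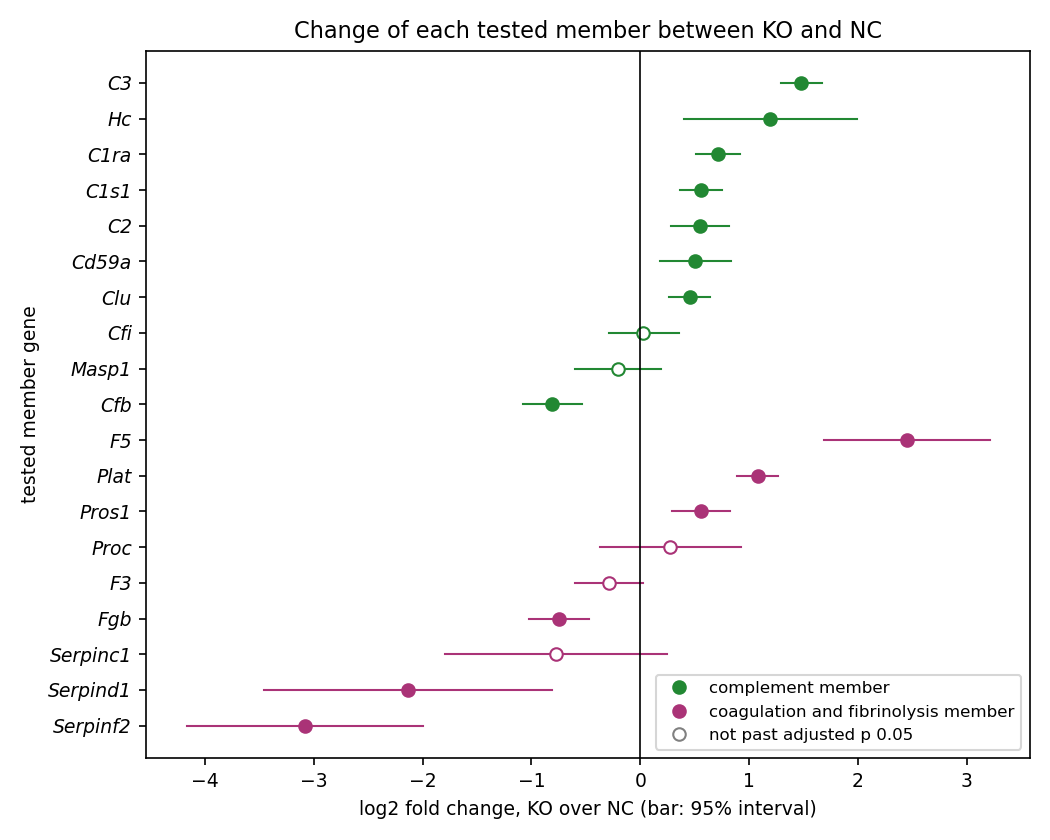
Log2 ratio of KO over NC for each tested member (x axis) with its 95% interval as a bar, complement above and coagulation below, filled where the adjusted p is under 0.05. Complement members lie mostly to the right of 0 with Cfb at -0.81, while coagulation members run from Serpinf2 at -3.09 to F5 at 2.45.

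The remaining 25 members, 10 of complement and 15 of coagulation, fell under the filter. Of them 9 had 0 counts in all libraries: Mbl2, C6, C8a, C8b, Cd55, F7, F10, Plg and Cpb2. A count of 0 allows up to 3 counts, or 0.217 to 0.264 CPM per library, and this covers counting error only. The other 16 had at most 24 counts over the 4 libraries together, so a large part of both cascades was at or near the limit of detection in this line.

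Expression was concentrated in a few members. Clu, which encodes clusterin, a secreted chaperone that also binds the terminal complement complex, had the highest level at 593.5 ± 13.1 TPM in NC and 812.7 ± 4.30 TPM in KO (SD, n = 2). C3 followed, then C1s1, Plat and C1ra. The summed TPM of all 44 members was 923.9 and 961.9 in the NC libraries against 1433 and 1461 in the KO libraries, so both KO libraries were higher. Clu gave 43.5% of the difference between the group means, C3 30.1%, Plat 11.8%, C1s1 10.6% and C1ra 3.60%. Without these 5 genes the other 39 members summed to 87.7, 86.6, 88.8 and 89.5 TPM in NC 1, NC 2, KO 1 and KO 2, a ratio of 1.02 between the group means. The higher summed level in KO therefore lay in the 5 genes of highest level. Among the other 39, changes went in both directions and largely offset each other in the sum. The difference of group means (KO minus NC) was 6.71 TPM for C2 and 3.68 for Cd59a, but -5.62 for Cfb and -2.83 for Fgb.

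**Figure D2:**
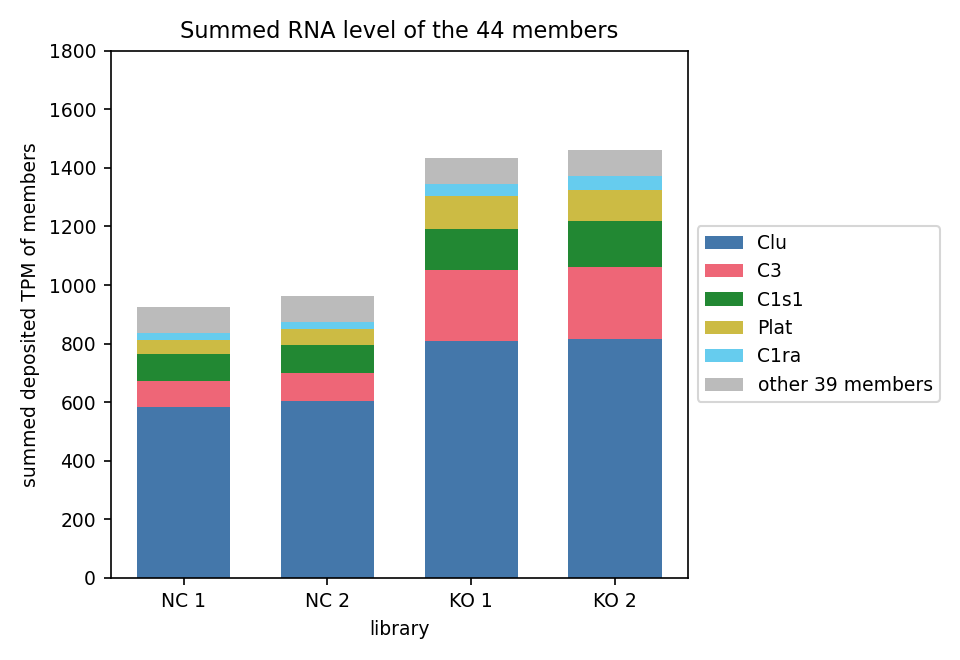
Deposited TPM summed over the 44 members in each library (y axis), with the 5 highest members coloured and the other 39 in grey. The NC bars reach 923.9 and 961.9 and the KO bars 1433 and 1461, and the grey part is nearly level at 86.6 to 89.5.

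C3, the central component, had the largest change of the complement members tested. C3 (ENSMUSG00000024164.15, GRCm38 chromosome 17, 57203970 to 57228136, minus strand) is cleaved by every complement route, and its fragments mark targets and recruit cells. It was at 243.6 and 258.4 CPM in the NC libraries and at 676.3 and 725.2 CPM in the KO libraries. Both KO libraries stood far above both NC libraries, and the replicates within a group were close. The log2 ratio was 1.48 (SE 0.093, 2.79-fold, adjusted p = 3.00e-12). In TPM, C3 rose from 92.5 ± 7.86 to 244.4 ± 2.36 (SD, n = 2); in NC it was level with C1s1 (94.0 ± 0.21) and in KO above it (147.3 ± 12.8). Its share of the members' summed TPM was 9.41% and 10.2% in the NC libraries and 16.9% and 16.8% in the KO libraries.

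The 250 bases before the C3 start, from RefSeq (GRCm38.p6, minus strand, chr17:57228137-57228386), are shown because C3 had the largest rise among the complement members. Capitals mark matches to the core TTNNGNAA of C/EBP factors, liver and acute-phase regulators, on either strand.
C3: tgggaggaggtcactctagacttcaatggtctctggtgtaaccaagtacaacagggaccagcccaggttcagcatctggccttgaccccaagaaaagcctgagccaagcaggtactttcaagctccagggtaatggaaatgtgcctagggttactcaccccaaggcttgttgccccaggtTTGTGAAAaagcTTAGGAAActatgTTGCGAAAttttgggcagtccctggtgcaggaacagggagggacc
The window held 3 such stretches in its last part before the start. That core is short, and 36.8% of 32851 RefSeq windows of the same length held at least 1 match, so it describes this window and says nothing on binding.

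Both C1 protease genes rose. C1ra and C1s1 encode the proteases of the first complement complex, which cleave C4 and C2. C1ra (ENSMUSG00000055172.10, chromosome 6, 124512405 to 124523443, plus strand) was at 64.2, 64.5, 97.2 and 114.5 CPM in NC 1, NC 2, KO 1 and KO 2. Its log2 ratio was 0.72 (SE 0.099, adjusted p = 2.27e-06). C1s1 (ENSMUSG00000038521.17, chromosome 6, 124530345 to 124542359, minus strand) was at 174.2, 182.2, 241.4 and 284.4 CPM, with a log2 ratio of 0.56 (SE 0.095, adjusted p = 4.21e-05). In both genes KO 2 was above KO 1 and the groups did not overlap. Each has a near-identical copy beside it, and expected counts can be shared between copies. C1rb, the copy of C1ra, had 181, 183, 199 and 236 counts and a log2 ratio of 0.17 (adjusted p = 0.403), while C1s2, the copy of C1s1, rose by 0.44 (adjusted p = 0.00179). With each copy added to its partner, the values were 0.63 for C1ra and 0.54 for C1s1, and both still passed. C1s1 also shares exon positions with Gm16567 on the other strand.

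The substrates of these proteases differed. C2 (ENSMUSG00000024371.14, chromosome 17, 34862604 to 34898265, minus strand), the protease of the classical and lectin convertase, was at 22.6, 23.0, 28.5 and 38.2 CPM in NC 1, NC 2, KO 1 and KO 2. It rose by 0.55 log2 units (SE 0.13, adjusted p = 0.00164), but KO 2 carried much of this, and without it the value was 0.32 (adjusted p = 0.0928). C4b, the other convertase part, had 1, 0, 3 and 3 counts and its copy C4a had 10, 9, 13 and 10, so C4 RNA was scarce in both groups. The first recognition molecule was also missing, with C1qa, C1qb and C1qc at 0 counts in all libraries.

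The alternative route moved the other way. Cfb (ENSMUSG00000090231.10, chromosome 17, 34856374 to 34862518, minus strand) encodes factor B, the protease of the alternative C3 convertase and the counterpart of C2. It was at 25.6 and 27.1 CPM in NC and 15.1 and 14.95 CPM in KO. Both KO libraries were lower and nearly equal, a fall of 0.81 log2 units (SE 0.13, adjusted p = 2.48e-05). Cfb and C2 lie on the same strand with 85 bases between them and are annotated with a read-through gene, Gm20547, that shares exons with both. Gm20547 had 0 counts in all 4 libraries. In NC the 2 genes were at 13.5 TPM (Cfb) and 14.1 TPM (C2), and in KO at 7.83 and 20.8 TPM, so neighbours of like level in NC parted in opposite directions in KO. C2 also overlaps exons of Zbtb12 on the other strand, and whether counting used strand is not given in the sources used here.

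Of the lectin route, only Masp1 (ENSMUSG00000022887.9) was measurable among the members. It encodes a protease that binds mannose-binding lectin and was at 8.27, 8.16, 7.51 and 6.74 CPM in NC 1, NC 2, KO 1 and KO 2. The log2 ratio of -0.205 had a 95% interval of -0.598 to 0.188 (adjusted p = 0.425). Mbl2, a lectin that recognises microbial sugars, had 0 counts throughout.

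The terminal pathway was close to silent. Hc (ENSMUSG00000026874.10, chromosome 2, 34983331 to 35061438, minus strand), which encodes complement component C5 and begins pore formation, was the only one of 6 terminal members with enough counts to test. It had 13 and 17 counts in NC against 31 and 42 in KO, or 1.14, 1.23, 2.35 and 3.11 CPM. The log2 ratio of 1.20 (SE 0.39, adjusted p = 0.0141) rests on these few reads. It was lost with DESeq2 (adjusted p = 0.159), without NC 1 (1.14, adjusted p = 0.0587) and without KO 2 (0.98, adjusted p = 0.185). Of the pore-forming members, C6, C8a and C8b had 0 counts, C8g had 3, 4, 8 and 5, and C9 had 0, 5, 4 and 5. Hc and Gm13449 share exon positions on opposite strands.

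Regulators of complement were read at very different levels. Clu (ENSMUSG00000022037.15, chromosome 14, 65968483 to 65981547, plus strand) was at 749.7, 747.7, 1019 and 1033 CPM in NC 1, NC 2, KO 1 and KO 2, with replicates almost equal. It rose by 0.46 log2 units (SE 0.092, 1.37-fold, adjusted p = 0.000329). Cd59a (ENSMUSG00000032679.12), a membrane protein that blocks assembly of the pore, was at 13.5, 11.3, 15.0 and 19.9 CPM. Its log2 ratio of 0.51 (SE 0.16, adjusted p = 0.0134) was 0.29 without KO 2 (adjusted p = 0.264) and 0.38 without NC 2 (adjusted p = 0.124). It did not pass with DESeq2 either (adjusted p = 0.137). Cfi (ENSMUSG00000058952.12), the protease that inactivates C3b and C4b, was at 12.5, 11.8, 13.2 and 11.6 CPM, and the groups overlapped. Its log2 ratio of 0.030 had a 95% interval of -0.291 to 0.352 (adjusted p = 0.901). Serping1, the C1 inhibitor, had 0, 0, 2 and 2 counts, Vtn, which holds the terminal complex in solution, had 1 count in KO 2, and Cd55, which breaks up convertases, had none. Of the soluble regulators, then, Clu and Cfi were read well and Serping1 and Vtn were not.

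With KO 2 left out, the log2 ratio was 0.32 for C2, 0.98 for Hc and 0.29 for Cd59a. These members no longer passed, and fewer of all genes passed too, as given below. C3, C1ra, C1s1 and Clu passed with each library left out in turn, and so did the lower level of Cfb.

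**Figure D3:**
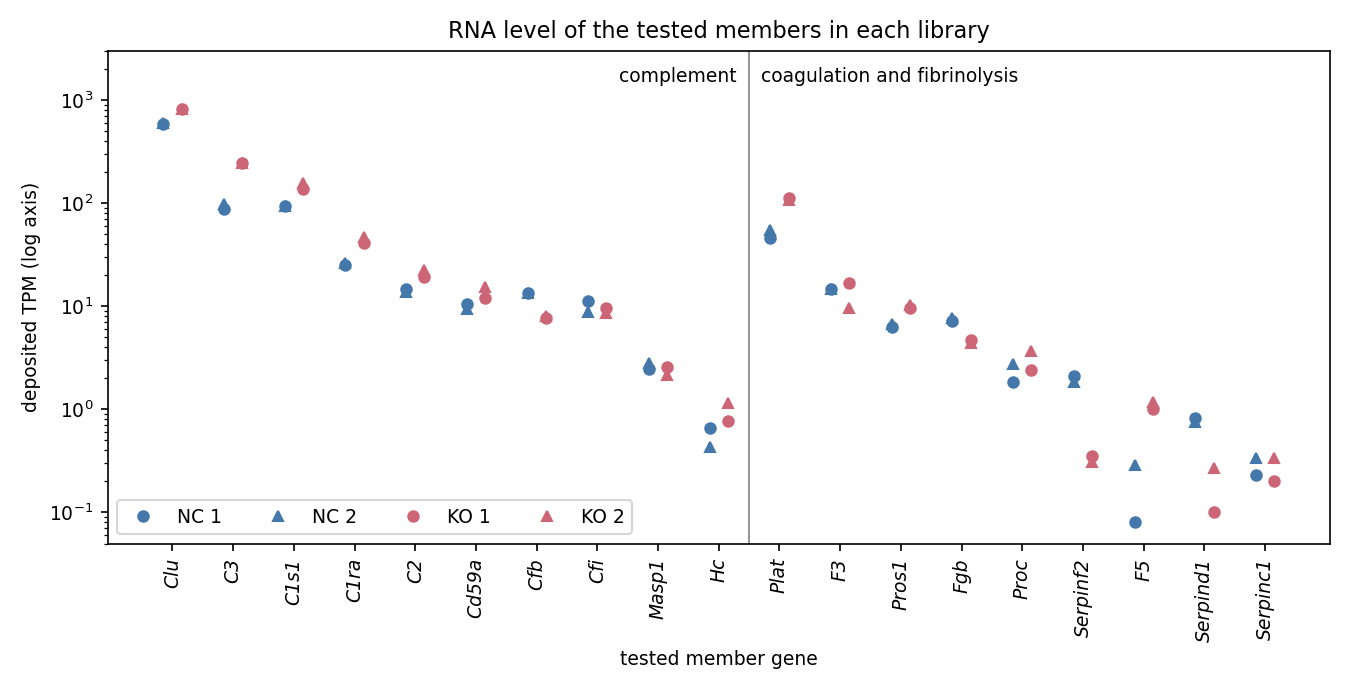
Deposited TPM (y axis, log scale) of the 19 tested members in each of the 4 libraries, complement on the left and coagulation and fibrinolysis on the right, ordered by mean level. NC libraries are blue and KO libraries red; C3, C1s1 and Plat show NC and KO points fully apart, while Cfi, Masp1, F3, Proc and Serpinc1 overlap.

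Coagulation begins with tissue factor, encoded by F3 (ENSMUSG00000028128.13, chromosome 3, 121723537 to 121735048, plus strand), a membrane receptor that many tumour cells carry. F3 was at 20.8, 18.9, 19.0 and 13.6 CPM in NC 1, NC 2, KO 1 and KO 2. KO 1 lay within the NC range and KO 2 below it. The log2 ratio was -0.285 (SE 0.15, adjusted p = 0.140), -0.55 without KO 1 (adjusted p = 0.00703) and -0.063 without KO 2 (adjusted p = 0.816), so the value depended on which KO library was used. Its partner protease F7 had 0 counts, and Tfpi, the inhibitor of both, had 2, 0, 2 and 3.

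The contact and intrinsic factors were all under the filter. F12, Klkb1 and F9 had at most 1 count in any library. F11 had 8 counts in each NC library, 7 in KO 1 and 1 in KO 2. Kng1, which encodes kininogen, the source of bradykinin, had 4 and 9 counts in NC against 0 in both KO libraries. Set against 3 counts over the KO group, that is at least 4.59-fold lower in KO, with the NC counts taken as exact.

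In the common pathway, F5 (ENSMUSG00000026579.8, chromosome 1, 164151838 to 164220277, plus strand), which encodes the cofactor of factor X, had 6 and 26 counts in NC against 82 and 102 in KO. These are 0.528, 1.88, 6.22 and 7.55 CPM. Only in KO did both libraries reach the filter, so F5 could be tested only because KO was high. Both KO libraries were higher, although NC 2 was well above NC 1. The log2 ratio was 2.45 (SE 0.37, 95% interval 1.69 to 3.21, adjusted p = 3.32e-06), 3.68 without NC 2 and 1.86 without NC 1. F5 shares exon positions with Gm16548 on the other strand. F2, which encodes prothrombin, had 5 and 6 counts in NC against 0 in both KO libraries. Against 3 counts over the KO group that is at least 3.88-fold lower, again with the NC counts taken as exact. F2 and Kng1 passed when genes with any count were tested (adjusted p = 0.0189 and 0.00819). F10 had 0 counts, so the enzyme that F5 protein serves was not read.

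Fibrinogen is built from 3 chains whose genes lie together on chromosome 3. Only the beta chain gene was read. Fgb (ENSMUSG00000033831.5, 83040141 to 83049863, minus strand) was at 24.1 and 24.4 CPM in NC and 14.6 and 14.3 CPM in KO. The replicates were nearly equal and the groups apart, a fall of 0.75 log2 units (SE 0.13, adjusted p = 7.90e-05). Fga had 0, 1, 2 and 0 counts and Fgg 1, 0, 0 and 0, against 192 to 338 for Fgb. F13b, a subunit of the enzyme that cross-links fibrin, had 1 count in KO 2.

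The 250 bases before each fibrinogen start, from RefSeq on GRCm38.p6, are printed to set the read gene beside its unread neighbours. Fgb is at chr3:83049864-83050113 on the minus strand, Fga at chr3:83025903-83026152 and Fgg at chr3:83007474-83007723 on the plus strand. Capitals mark TTCNNNGAA (STAT core), CTGGGAA (type II interleukin-6 response element), TTNNGNAA (C/EBP) and GTTAAT (HNF1 core), searched on both strands.
Fgb: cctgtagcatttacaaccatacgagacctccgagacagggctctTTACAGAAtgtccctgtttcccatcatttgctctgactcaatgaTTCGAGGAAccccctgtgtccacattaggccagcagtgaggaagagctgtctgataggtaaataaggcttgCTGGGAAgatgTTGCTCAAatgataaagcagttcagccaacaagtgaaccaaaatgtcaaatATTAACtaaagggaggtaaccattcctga
Fga: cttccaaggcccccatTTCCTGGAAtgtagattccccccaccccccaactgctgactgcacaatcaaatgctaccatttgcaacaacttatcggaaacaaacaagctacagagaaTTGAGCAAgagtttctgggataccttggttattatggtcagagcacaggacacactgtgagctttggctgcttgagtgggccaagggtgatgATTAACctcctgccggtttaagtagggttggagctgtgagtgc
Fgg: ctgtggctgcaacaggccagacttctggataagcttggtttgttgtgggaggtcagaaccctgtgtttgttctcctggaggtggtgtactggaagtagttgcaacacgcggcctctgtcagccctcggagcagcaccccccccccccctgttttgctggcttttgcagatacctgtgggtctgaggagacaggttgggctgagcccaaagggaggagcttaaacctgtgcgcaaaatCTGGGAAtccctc
The Fgb window held all 4 motifs, the Fga window lacked CTGGGAA, and the Fgg window held only CTGGGAA. The STAT core was in 7.02% of the 32851 windows, CTGGGAA in 9.10% and the HNF1 core in 6.43%. Fga shares 3 of the 4 motifs with Fgb and had 3 counts in all. GENCODE M21 starts the Fga gene at 83026076, inside the RefSeq window shown. The ATTAAC match of Fga (HNF1 core) therefore lies within that annotated gene. The full palindromic HNF1 site, the HNF4 site CAAAGTCCA and the NF-kB site were in none of the 35 windows of 32 members with an entry, beside 0.009%, 0.384% and 1.41% of all windows.

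Other members that lie near each other were read alike in some pairs and not in others. C4b, 112491 bases from Cfb, had at most 3 counts in a library against 199 to 375 for Cfb. Kng1, 367338 bases from Masp1, had at most 9 against 91 to 113 for Masp1. Cfb and C2, the closest pair, moved in opposite directions. Tfpi and Serping1, 288611 bases apart, were both under the filter. C1ra and C1s1, 6901 bases apart, were both well read and both rose. Fga and Fgb are 6513 bases apart and Fgg and Fga 11026. C8b and C8a, 11130 bases apart, and F7 and F10, 1498 bases apart, had 0 counts each. F11 and Klkb1, 4657 bases apart, had 24 and 2 counts in total, both under the filter.

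**Figure D4:**
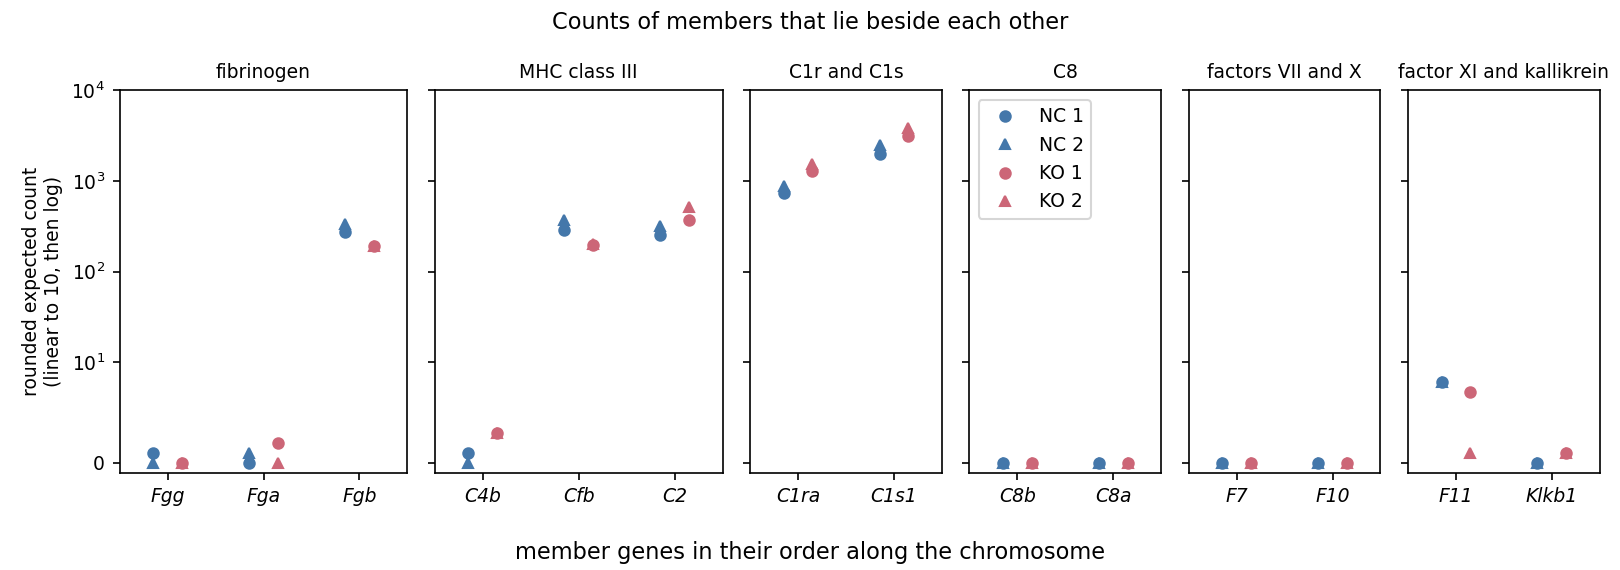
Rounded expected counts (y axis, linear to 10 and then log) of neighbouring members in each library, NC blue and KO red, in order along each chromosome. Fgb is read at 192 to 338 counts beside Fgg and Fga at 0 to 2, Cfb is lower and C2 higher in KO, and C8 genes and F7 and F10 sit at 0.

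Anticoagulant members split. Pros1 (ENSMUSG00000022912.8, chromosome 16, 62854307 to 62929346, plus strand), the cofactor of activated protein C and also a ligand of TAM receptors, was at 17.9, 18.6, 25.3 and 28.5 CPM in NC 1, NC 2, KO 1 and KO 2. It rose by 0.56 log2 units (SE 0.13, adjusted p = 0.00127). Proc, which encodes protein C itself, was at 2.29, 2.82, 2.58 and 3.63 CPM and overlapped between groups (log2 ratio 0.275, 95% interval -0.374 to 0.924, adjusted p = 0.521). Serpind1 (ENSMUSG00000022766.14), heparin cofactor II, an inhibitor of thrombin, had 16 and 18 counts in NC against 2 and 6 in KO. This gene passed the filter through NC alone, so it could be tested only because NC was high. Its log2 ratio of -2.14 (SE 0.65, adjusted p = 0.00494) was -1.58 without KO 1 (adjusted p = 0.113) and -3.08 without KO 2 (adjusted p = 0.0105), and DESeq2 gave an adjusted p of 0.103. Serpinc1, antithrombin, had 12, 19, 11 and 8 counts and a log2 ratio of -0.773 with a wide 95% interval of -1.80 to 0.25 (adjusted p = 0.221). In TPM its groups overlapped.

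In fibrinolysis the activator rose and the plasmin inhibitor fell. Plat (ENSMUSG00000031538.6, chromosome 8, 22757727 to 22782844, plus strand) encodes tissue plasminogen activator and was the coagulation member with the highest level. It was at 99.1 and 110.8 CPM in NC and 222.6 and 221.4 CPM in KO. The KO libraries were nearly equal and both far above NC, with a log2 ratio of 1.08 (SE 0.093, 2.11-fold, adjusted p = 1.06e-09). Plau, the urokinase gene, had at most 1 count in any library, so of the plasminogen activators only Plat passed the filter. Serpinf2 (ENSMUSG00000038224.12, chromosome 11, 75431732 to 75439591, minus strand) encodes alpha-2-antiplasmin, the main inhibitor of plasmin. It had 37 and 45 counts in NC against 4 and 6 in KO, or 3.25, 3.25, 0.304 and 0.444 CPM. Serpinf2 passed the filter through NC alone, so it could be tested only because NC was high. Both KO libraries were far lower, with a log2 ratio of -3.09 (SE 0.53, 8.49-fold lower, adjusted p = 6.33e-06) that lay between -3.38 and -2.85 with each library left out. Plg, the substrate of Plat, and Cpb2, an inhibitor of clot lysis, had 0 counts.

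Among tested members past 0.05, C3, Hc, F5 and Plat were higher by over 2-fold and Serpind1 and Serpinf2 lower by over 2-fold, 4 and 2 of 19, beside 5.72% and 1.13% of all genes tested. F5, Serpind1 and Serpinf2 are among the members tested through 1 group only, and over the 15 that reached the filter in both groups 3 were higher by over 2-fold, while the 2 that fell, Cfb and Fgb, changed by less than 2-fold. In TPM the coagulation members summed to 85.4 ± 7.07 in NC and 142.8 ± 7.64 in KO (SD, n = 2), mostly Plat. The complement members summed to 857.5 ± 19.8 and 1304 ± 27.3.

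Other genes of the same systems were read from a list of 55, of which 24 were tested, 9 rose and 2 fell. These 11 are 45.8% of those tested, beside 37.9% of all genes, so the share lies near the background. Over the 20 that reached the filter in both groups, 8 rose and 1 fell. In complement 3 of 10 tested rose and 1 fell, and in coagulation 6 of 14 rose and 1 fell. Their median log2 ratio was 0.23 in complement and 0.204 in coagulation. The counts changed with a library left out, and are given below beside those of all genes. Serpinb2, an inhibitor of urokinase, rose by 2.11 (SE 0.30, adjusted p = 1.74e-06) from 1.75 ± 0.64 to 7.42 ± 0.19 CPM (SD, n = 2). Serpine2, which inhibits thrombin and plasminogen activators, rose by 1.57 (SE 0.23, adjusted p = 4.84e-06).

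In complement, Masp2, the lectin-route protease that cleaves C4 and C2, had no count in either NC library but 23 and 60 in KO. Against 3 counts over the NC group that is at least 26.1-fold higher, with the KO counts taken as exact (adjusted p of the fit = 7.48e-07). KO 2 was well above KO 1, and the gene passed the filter through KO alone. Masp2 shares exon positions with Tardbp on the other strand, and whether this bears on its reads was not tested. Cr1l, which encodes the membrane regulator Crry of rodents, fell by 0.62 (log2 ratio -0.62, SE 0.11, adjusted p = 5.96e-05), from 45.1 and 45.9 CPM to 28.2 and 31.0 CPM.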

How the data were processed

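Members, roles, lists and motifs were chosen with earlier results of these data known. The authors deposited 1 table per library with expected counts, TPM and FPKM, per the file headers. The length and effective length columns were deposited too. The submitters' processing notes name STAR, RSEM, FastQC, DESeq2 and GRCm38, with no versions, and the annotation release and strand setting are not given in the sources used here. RSEM shares reads among similar genes. TPM is the authors' value per length, FPKM was not used, and other values were computed from rounded expected counts.

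Genes were kept by filterByExpr (12510 genes, at least 99.9% of counts), scaled by TMM (0.981 to 1.02) and compared with edgeR 4.0.16 (R 4.3.3) quasi-likelihood tests, group as the only term, after a check on simulated counts. SEs come from the fitted weights. Prior degrees of freedom were 25.8. Named genes are all members, Acvr2a and the 6 other listed genes with the lowest p. Some genes that meet this rule are left out of the text. All 44 members matched GENCODE M21 by ID. Alternatives used DESeq2 1.42.0, limma 3.58.1, other scalings and filters, a replicate block, summed gene copies and each library left out.

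Pearson correlations of log2 CPM over genes, which are not independent, were 0.989 within each group and 0.963 to 0.972 across groups.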

Additional observations from a re-analysis of the deposited data

How the results depend on the processing

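Depth limits the members with few counts: the 25 under the filter allow no statement on change beyond those given for F2 and Kng1. All 19 members kept direction and call with RLE or upper-quartile factors, library totals, no filter and a mean count of at least 10. Without the filter 5 coagulation members were lower in place of 3, since more genes were tested. DESeq2 called 2868 genes (1417 higher, 1451 lower) against 4741 (2459 and 2282), with 1 of the other pathway genes lower. Limma on log2(TPM + 1) called 1739 genes (1168 higher, 571 lower), and with a pseudocount of 0.1 1698 (1143 and 555). The higher share was thus 67.2% and 67.3% against 51.9%. In both, 4 other pathway genes were higher and 1 lower. Without a filter on low TPM, limma called 0 genes, so 0 members and 0 other pathway genes in either direction, with 4506 genes at an unadjusted p under 0.05, and all 14 member calls were lost. The causes were not tested. Cfi reversed to -0.12 with TPM (with and without the filter), to -0.13 with the smaller pseudocount, and with a library left out ranged from -0.064 to 0.12, negative (-0.0083 and -0.064) without NC 2 and without KO 1.

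With each library left out, between 3507 and 4488 genes passed (1831 to 2312 higher, 1656 to 2176 lower). Complement members higher were 4 to 7 and lower 1, coagulation members higher 3 and lower 3, and other pathway genes higher 5 to 8 and lower 1 to 3; a lone sample is then assumed to vary like the other group. The 3 lower coagulation members were not the same genes throughout, as F3 took the place of Serpind1 without KO 1. The libraries share replicate numbers only: deviations of same-numbered libraries correlated at -0.0116 over genes, and no label ties them. With the replicate number as a block, 5006 genes passed, and no call of a member changed.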
